A study of Mus musculus with 4 samples.

Results

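The mitosis genes were a list of 40 genes whose products carry a cell through M phase, taken by symbol: 6 cyclins and CDK partners, 6 mitotic kinases and checkpoint genes, 3 partners of a ubiquitin ligase, 8 centromere, kinetochore and chromosomal passenger genes, 9 kinesins and spindle genes, 6 chromosome genes and 2 cytokinesis genes. All 40 were present among the 27998 genes listed for both data sets. The cells were classical monocytes with high Ly6C, sorted from the bone marrow of wild-type C57BL/6 mice as Ly6G-CD11b+CD115+Ly6C-high cells. Each sex was a separate experiment of 5 young and 5 old mice, in which every mouse was marked with its own hashtag antibody before all were pooled into a single library. Male mice were 14 weeks or 27 months old, and female mice were 15 weeks or 26.5 months old. No treatment or transgene was used in any group. Since each sex was a library of its own, sex and library cannot be told apart, and levels were not compared between the sexes.

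As background, a cell enters mitosis when cyclin B binds and activates the kinase Cdk1. Aurora and Polo-like kinases then help to build the spindle, condensins and topoisomerase II compact the chromosomes, and kinetochores tie each chromosome to microtubules. The spindle checkpoint restrains the anaphase-promoting complex, a ubiquitin ligase, until the chromosomes are attached, after which cyclin B and securin are degraded and the sister chromatids part. Many of these genes are transcribed late in the cell cycle under FOXM1, B-MYB and the DREAM complex, which act through a promoter element named CHR and through CCAAT boxes bound by NF-Y. In bone marrow, monocyte progenitors divide, and dividing cells become rarer as monocytes mature.

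The promoters of the 5 most abundant members in the female pool are shown because the members' transcripts occurred in the same cells, as described further on. Of the 40 members, 35 had a window in the RefSeq table (build GRCm38.p6), which runs from 250 bases before to 50 bases after the annotated start. The letters TTTGAA, the core of the CHR element, were sought on both strands and stood in 27 of the 35 windows (77.1%), beside 18.1% of 27025 promoters of all genes. CCAAT, sought in the same way, stood in 27 windows (77.1%), beside 37.9% of all promoters. Both motifs stood in 23 members' windows (65.7%), beside 7.12% of all promoters. Of 17 DNA replication genes with a window, 3 (17.6%) held TTTGAA and 11 (64.7%) held CCAAT. Such matches are a description of letters and not of bound sites. Capitals mark both motifs, on either strand, in the sequences that follow. Ube2c held 1 TTTGAA and 6 CCAAT matches, Top2a 2 and 6, Cenpa 1 and 2, and Mki67 2 and 3, whereas Birc5 held 0 of either in this window.
Ube2c, chr2:164769679-164769978, plus strand: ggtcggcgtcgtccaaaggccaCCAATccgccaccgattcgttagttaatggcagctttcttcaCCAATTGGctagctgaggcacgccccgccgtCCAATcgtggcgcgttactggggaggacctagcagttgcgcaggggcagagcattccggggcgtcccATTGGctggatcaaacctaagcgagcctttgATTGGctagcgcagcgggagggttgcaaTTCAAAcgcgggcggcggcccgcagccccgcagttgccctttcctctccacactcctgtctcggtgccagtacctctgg
Top2a, chr11:99024140-99024439, minus strand: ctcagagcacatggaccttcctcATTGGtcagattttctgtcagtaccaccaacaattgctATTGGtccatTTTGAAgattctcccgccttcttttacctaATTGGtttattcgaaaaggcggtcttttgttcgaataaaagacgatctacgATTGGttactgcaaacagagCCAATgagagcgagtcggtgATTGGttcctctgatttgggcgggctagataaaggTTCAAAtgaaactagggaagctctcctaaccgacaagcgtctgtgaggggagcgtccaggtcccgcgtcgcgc
Birc5, chr11:117848987-117849286, plus strand: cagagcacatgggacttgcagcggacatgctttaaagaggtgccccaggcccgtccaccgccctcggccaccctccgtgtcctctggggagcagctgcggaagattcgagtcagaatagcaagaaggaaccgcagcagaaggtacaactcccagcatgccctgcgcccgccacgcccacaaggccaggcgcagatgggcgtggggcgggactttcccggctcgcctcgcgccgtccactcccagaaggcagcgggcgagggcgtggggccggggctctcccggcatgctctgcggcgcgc
Cenpa, chr5:30666636-30666935, plus strand: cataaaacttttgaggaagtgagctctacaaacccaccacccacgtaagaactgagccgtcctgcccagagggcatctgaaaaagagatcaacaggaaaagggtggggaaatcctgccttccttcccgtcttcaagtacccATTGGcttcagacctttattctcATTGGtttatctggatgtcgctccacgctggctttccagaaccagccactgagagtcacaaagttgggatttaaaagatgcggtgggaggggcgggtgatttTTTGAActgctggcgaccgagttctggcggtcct
Mki67, chr7:135716330-135716629, minus strand: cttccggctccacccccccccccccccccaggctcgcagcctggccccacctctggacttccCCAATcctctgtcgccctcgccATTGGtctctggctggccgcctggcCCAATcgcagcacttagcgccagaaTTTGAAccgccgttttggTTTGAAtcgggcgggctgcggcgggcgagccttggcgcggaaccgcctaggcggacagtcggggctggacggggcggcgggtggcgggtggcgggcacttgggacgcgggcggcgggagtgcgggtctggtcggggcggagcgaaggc

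The male pool gave 1227 cells and the female pool 6641. Totals per mouse ran from 330580 to 1108303 UMIs (unique molecular identifiers, each standing for 1 captured transcript) in males and from 2827591 to 18186602 in females, and 0 cell barcodes occurred in both pools. The members held 23418 male UMIs, from 77 for Ect2 to 2181 for Cks2, and 440502 female UMIs, from 1491 for Ttk to 39595 for Ube2c. All 8 classical monocyte markers had UMIs in both pools. Old mice had deeper cells than young mice without overlap in either sex, with median UMIs per cell of 4489.5 to 8844 in old and 3806 to 4456 in young males, and of 9699.5 to 13033 in old and 7978 to 8990 in young females. Members per cell were therefore counted after each cell had been thinned at random to 2000 UMIs, which left out 58 shallower male cells (32 young, 26 old) and 4 female cells (1 young, 3 old).

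Mitosis genes were detected many together in some cells and hardly at all in others. At 2000 UMIs, 24.6% of male and 17.2% of female cells had no UMI of any member. At the other end, 329 of 1169 male cells (28.1%) and 2532 of 6637 female cells (38.1%) had UMIs of 5 or more members, and 13.6% and 25.4% had 10 or more. The largest number of members in a thinned cell was 24 in males and 31 in females. There was no gap at the limit of 5. As many as 115 male cells (9.84%) and 473 female cells (7.13%) had 4 or 5 members, so that the class is a range and not a cell type. Without thinning, 60 female cells held UMIs of all 40 members, and 0 male cells did.

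**Figure D1:**
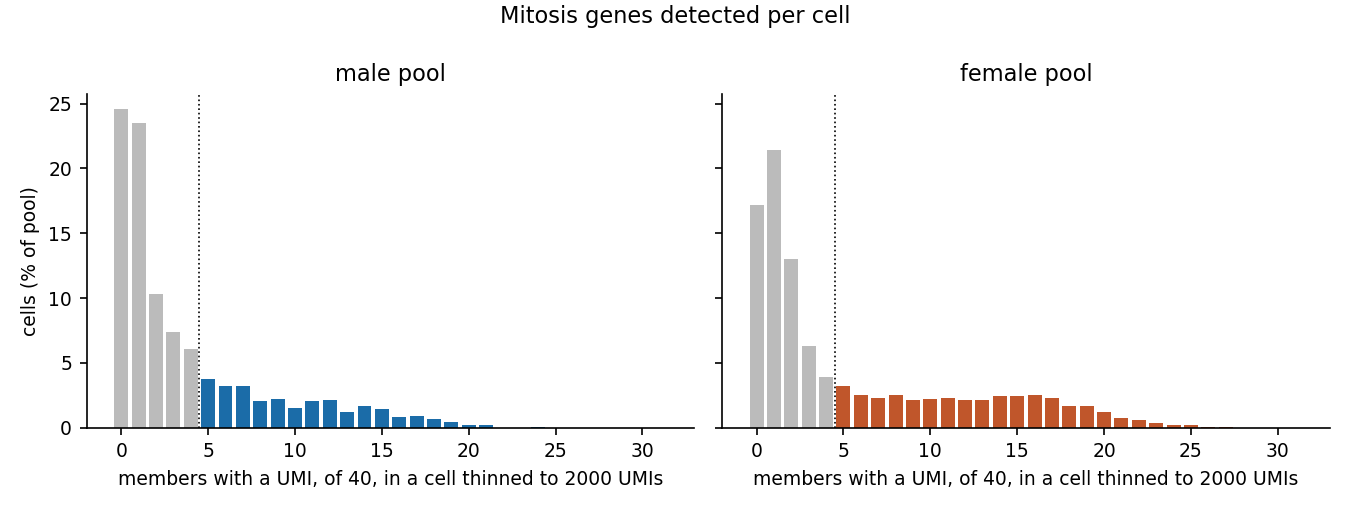
Number of the 40 mitosis genes with a UMI per cell (x axis) and percent of the cells of a pool (y axis), each cell thinned to 2000 UMIs; coloured bars are cells with 5 or more members. Both pools pile up at 0 and 1 member and run out in a tail that reaches 24 members in males and 31 in females.

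For each member, the share of thinned cells with a UMI of it was then compared between cells with 5 or more of the other 39 members and cells with 0 or 1 of them. Shares are means over the 10 mice of a pool and stand without a test. In females the median over members was 27.2% in the first class and 1.41% in the second, and in males 14.8% and 0.632%. The share in the second class was under 5% for 33 of 40 members in females and 32 in males. Unless stated otherwise, the following shares are from the female pool, the deeper of the 2, with the first class given before the second.

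Among the cyclins and their partners, Ccnb1 (cyclin B1) was seen in 27.6% and 1.13% of the cells and Cdk1, its kinase, in 36.4% and 2.35%. Ccnb2 (cyclin B2) was seen in 42.7% and 5.21%, and Ccna2 (cyclin A2, which acts from S phase into early mitosis) in 41% and 1.51%. The small CDK-binding proteins Cks1b and Cks2 reached 49.1% and 49.4% in the first class but also 5.51% and 10.0% in the second, above the median of the members.

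The mitotic kinases and checkpoint genes were sparser. Aurka (Aurora A, which acts at the centrosome) was seen in 20.2% and 1.21% of the cells, Plk1 (a Polo-like kinase) in 23.4% and 0.911%, and Bub1b (BubR1 of the checkpoint) in 19.5% and 1.42%. The checkpoint kinases Bub1 and Ttk reached 8.67% and 6.24% in the first class. The checkpoint gene Bub3 had the lowest ratio between the classes of all members, 1.76 in females and 2.09 in males. It was seen in 41.1% and 23.4% of female and 42.1% and 20.2% of male cells. The median ratio over members was 18.0 in females and, over members seen in both classes, 21.5 in males.

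The ubiquitin ligase partners included the most abundant member of the female pool. Ube2c, the ubiquitin-conjugating enzyme that works with the anaphase-promoting complex, was seen in 61.1% and 9.94% of female cells and in 38.8% and 2.33% of male cells. Cdc20, the activator of that complex, was seen in 30.1% and 1.49%, and Cdca3, a partner in the degradation of an inhibitor of mitotic entry, in 41.9% and 3.43%.

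Among the centromere and passenger genes, Birc5 (survivin, of the chromosomal passenger complex) had the highest share of all members in the first class in both sexes, with 66.5% and 3.75% in females and 67.1% and 3.12% in males. Its partners Cdca8 (borealin) and Aurkb (Aurora B) were seen in 47.7% and 32.3% of the first class. Cenpa, the histone variant that marks centromeres, was seen in 55.7% and 7.34%. The kinetochore genes Cenpe, a motor, and Cenpf were seen in 21.9% and 28.3% of the first class, and Ndc80 and Nuf2, which bind microtubules, in 12.9% and 13.2%.

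The kinesins and spindle genes ran in the first class from 10.4% for Kif2c, which shortens microtubules, to 34.4% for the spindle protein Nusap1. Kif11, the motor that pushes spindle poles apart, was seen in 21.7%, the Aurora A activator Tpx2 in 25.8% and the midzone protein Prc1 in 26.8%. The kinesins Kif20a, Kif20b and Kif23 were seen in 13.7%, 15.1% and 19.0%. Hmmr, a spindle protein, had the largest ratio in females, 71.1, from 17.7% and 0.249%. In the second class of male cells it was at 0%.

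Among the chromosome genes, Top2a (topoisomerase II alpha) was seen in 60.2% and 4.73% of the cells, Mki67 (Ki-67, which coats mitotic chromosomes) in 54.1% and 3.17%, and the condensin core genes Smc4 and Smc2 in 52.3% and 39.3% of the first class. The condensin I subunits Ncapd2 and Ncaph reached 17.4% and 9.90%. The cytokinesis genes Anln and Ect2, whose products act at the cleavage furrow, were seen in 9.10% and 8.06% of the first class.

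**Figure D2:**
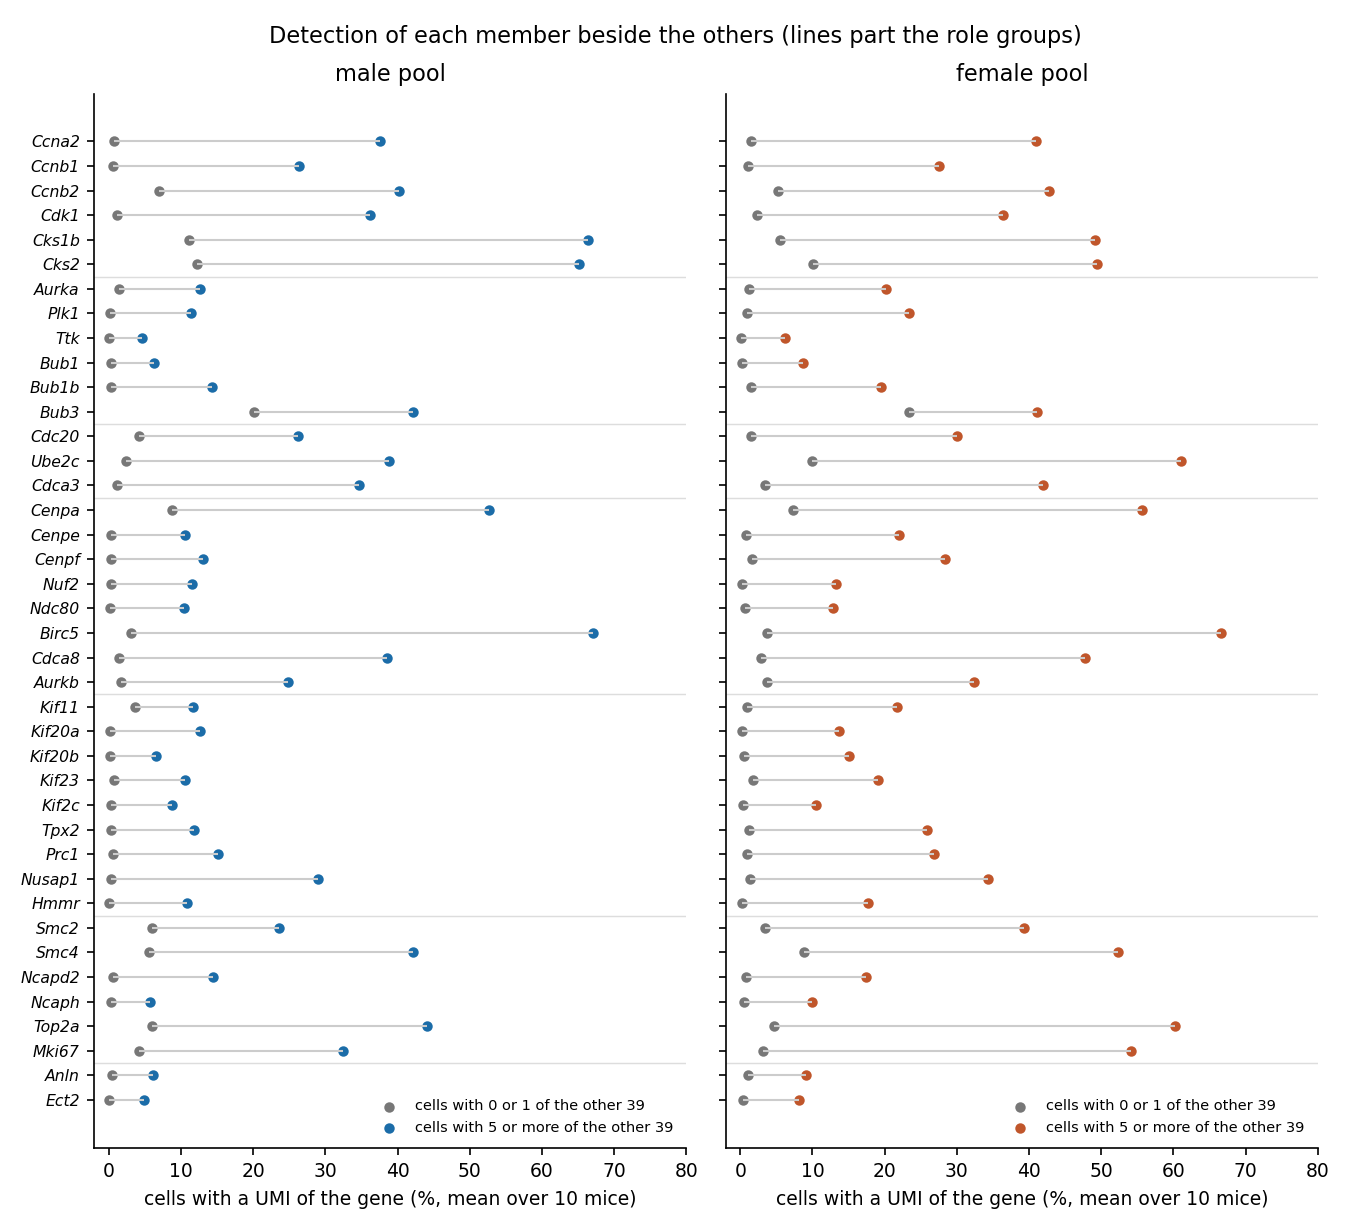
Percent of cells thinned to 2000 UMIs (mean over 10 mice, x axis) with a UMI of each member (y axis), in cells with 5 or more (coloured) or 0 or 1 (grey) of the other 39 members. Grey points lie near 0 for most genes, and Bub3 has the highest of them at 20.2% in males and 23.4% in females.

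Among the cells with several members, the members differed in how they went with DNA replication genes. This split was chosen after the data had been seen, and its shares are a description. Of the 2532 female cells with 5 or more members, 1448 (57.2%) also had UMIs of 3 or more of 20 DNA replication genes, and 314 (12.4%) had none. For each member, the shares were taken among cells with 5 or more of the other 39 members, so the number of cells differs between members. All cells of a pool were counted together here, and the shares are not means over mice. Of the 40 members, 16 were seen more often with 3 or more replication genes than with none, and 24 less often. Top2a was seen in 64.2% of cells with 3 or more replication genes and in 40.4% of those with none, Smc4 in 54.2% and 41.6%, and Cdk1 in 37.8% and 25.6%. Cenpa ran the other way with 43.4% and 78.8%, as did Ccnb2 with 33.4% and 64.0%, Cdc20 with 20.2% and 50.6%, and Cenpf with 20.1% and 42.1%.

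The male pool had 184 and 45 cells with 5 or more members in these classes, and the same directions for these genes. Of all 40 members, 19 were seen more often with 3 or more replication genes in males and 21 less often. Some members ran in opposite directions in the pools, such as Birc5 (62.6% and 68.8% in females, 63.5% and 57.1% in males). Counted in the same way, Top2a was seen in 48.3% and 33.3%, Cenpa in 35.6% and 68.3%, and Ccnb2 in 30.9% and 69.2%. Cdc20 was seen in 16.6% and 53.5%, and Cenpf in 9.78% and 13.3%. Cells without replication genes were shallower before thinning, with a median of 11362 UMIs beside 17443 in females and 5444 beside 8438 in males. As background, topoisomerase II alpha and Cdk1 are already made in S phase, while cyclin B2 and Cdc20 peak in G2 and M.

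Antibody counts, and depth beyond the limit of 2000 UMIs, did not enter the classes and were tested over mice. The sorting gate had already selected cells by CD11b, CD115 and Ly6C. The median number of UMIs per cell was 16788 ± 1595 (SD, n = 10 mice) in female cells with 5 or more members and 7869.6 ± 926 in those with 0 or 1. The ratio within a mouse ran from 1.96 to 2.26 and was above 1 in 10 of 10 mice (two-sided exact permutation test by sign changes, p = 0.00195, the smallest that 10 mice allow). In males the medians were 7964 ± 924 and 4344 ± 1175, and the ratio ran from 1.24 in old mouse 4 to 2.27 (exact permutation p = 0.00195). Female barcodes with hashtags of more than 1 mouse, which were left out, had a median of 18534 UMIs, and 57.5% of them had 5 or more members at 2000 UMIs. Doublets of cells from 1 mouse carry 1 hashtag and were not removed, and their part in the deeper cells was not tested.

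The female library also carried 6 antibodies against surface proteins. CD11b, an integrin that increases as monocytes mature and was part of the sorting gate, was lower on cells with 5 or more members in every mouse. Its medians per mouse were 24 to 32 counts on those cells and 42.5 to 69 on cells with 0 or 1 member, without overlap (27.7 ± 3.02 against 52.4 ± 8.08 counts, SD, n = 10; two-sided exact permutation test, Benjamini-Hochberg adjusted over 6 antibodies, p = 0.00586). As a percent of a cell's antibody counts, it was 4.55% and 9.57%. Ly6C was higher on cells with 5 or more members in 9 of 10 mice (522 ± 59.5 against 458 ± 37.6 counts, exact permutation test, adjusted p = 0.00781). Old mouse 2 was the exception, with 430 and 478 counts.

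MHC-II was lower on cells with 5 or more members in 10 of 10 mice (23 ± 15.1 against 30.4 ± 28.8 counts, exact permutation test, adjusted p = 0.00586). Old mouse 1 had 55 and 105 counts, and the mean difference was -7.40 counts with it and -2.67 without it (n = 9, exact permutation test, adjusted p = 0.0117). CD115, the M-CSF receptor, was higher in 7 mice and lower in 0 (4.5 ± 1.43 against 3.4 ± 0.843 counts, exact permutation test, adjusted p = 0.0234). Flt3, a receptor of earlier progenitors, was lower in 6 mice and equal in the others (1.90 ± 2.08 against 2.70 ± 2.58 counts, exact permutation test, adjusted p = 0.0375), and did not pass when cells with 10 or more members were taken (adjusted p = 0.0750, exact permutation test) or when any 1 of those 6 mice was left out (adjusted p = 0.0750, exact permutation test). CD11c did not pass (1.80 ± 1.14 against 2.30 ± 1.34 counts, exact permutation test, adjusted p = 0.125). As a percent of a cell's antibody counts, Flt3 and CD11c were both lower and passed (exact permutation test, adjusted p = 0.00938 and 0.00586). CD115, Flt3 and CD11c stood at a few counts per cell, and unspecific binding was not measured here.

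**Figure D3:**
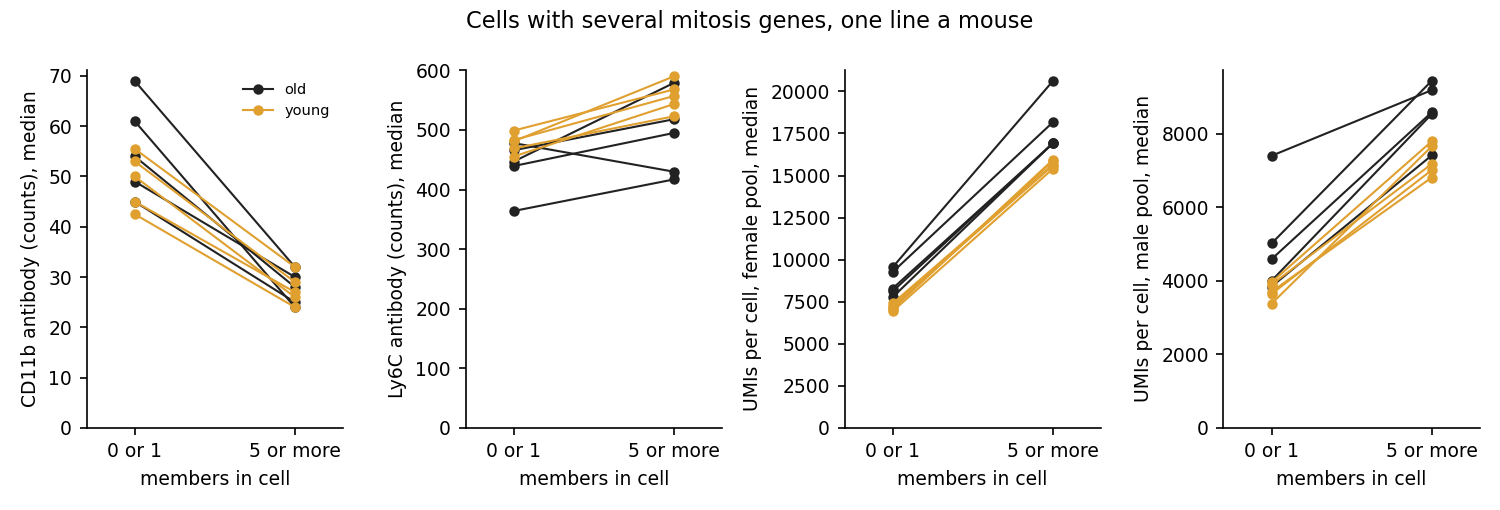
Median counts of the CD11b and Ly6C antibodies (female pool) and median UMIs per cell (both pools) in cells with 0 or 1 and with 5 or more members (x axis), 1 line per mouse. CD11b is lower in cells with 5 or more members in all 10 female mice, at 24 to 32 counts, and UMIs per cell are higher in all 20 mice.

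Genes outside the list also differed between these classes of cells. Their values come from the same RNA as the classes and stand without a test, as mean UMIs per thinned cell over 10 mice. The 8 myeloid progenitor and azurophil granule genes summed to 12.7 ± 2.55 UMIs in female cells with 5 or more members and 1.49 ± 0.295 in those with 0 or 1, and to 5.87 ± 1.17 and 1.93 ± 3.20 in males. In females Prtn3 (proteinase 3) had 5.18 and 0.655 UMIs, Elane (neutrophil elastase) 4.26 and 0.431, and Mpo (myeloperoxidase) 1.57 and 0.209. Flt3 of the same list ran the other way, with 0.0105 and 0.0224 UMIs in females and 0.0170 and 0.0255 in males. Kit, the stem cell factor receptor of early progenitors, was near 0, with 104 UMIs in all female cells. The classical monocyte markers summed to 47.2 ± 3.05 and 98.8 ± 6.08 UMIs in females and to 44.1 ± 7.78 and 95.1 ± 24.6 in males. Within them, Lyz2 (lysozyme) had 35.3 and 83.4 UMIs in females and Itgam, which encodes CD11b, 0.154 and 0.401, whereas Ly6c2 had 5.20 and 4.41.

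The regulators of mitotic transcription summed to 1.56 ± 0.0680 and 0.755 ± 0.0887 UMIs in females. Foxm1 had 0.104 and 0.00185, and Mybl2, which encodes B-MYB, 0.0398 and 0.00415. Some cells with UMIs of other cell types' genes also held members. Of female cells with UMIs of at least 2 T or NK cell genes, 4 of 31 (12.9%, exact 95% interval 3.63 to 29.8) had 5 or more members, at a median depth of 11811 UMIs beside 9591 in all female cells. Of those with at least 2 neutrophil genes, 18 of 32 (56.2%, exact 95% interval 37.7 to 73.6) in females and 6 of 16 (37.5%, exact 95% interval 15.2 to 64.6) in males had 5 or more, and of those with at least 2 erythroid genes, 2 of 8 (25%, exact 95% interval 3.19 to 65.1) in females. In males 0 of 4 cells with at least 2 basophil genes had 5 or more. The same held for 0 of 3 with erythroid and 0 of 1 with T or NK cell genes. Of female cells with at least 2 B cell genes, 1 of 3 did. The intervals cover counting error only. Whether these UMIs were free RNA was not tested.

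The share of cells with 5 or more members was then set out per mouse, from replicate 1 to 5. In young males it was 22.8%, 25.8%, 22.5%, 26.5% and 26.9% (mean 24.9 ± 2.10, SD, n = 5), and in old males 30.8%, 20.4%, 31.2%, 72.3% and 33.3% (37.6 ± 20.1). Old mouse 4 stood far above the others, with 34 of 47 cells (exact 95% interval 57.4 to 84.4, counting error only), while old mouse 2 lay below all young males in this random draw. The old mean lay 12.7 percentage points above the young, and 4.03 points without old mouse 4 (28.9 ± 5.81, n = 4). In young females the share was 36.4%, 36.7%, 40.9%, 36.8% and 37.5% (37.7 ± 1.86), and in old females 44.1%, 50.4%, 38.6%, 32.9% and 41.1% (41.4 ± 6.50). The old female mean lay 3.77 points above the young, and 1.53 points without old mouse 2. Old and young mice overlapped in both sexes. In a second random draw, old males ran from 22.2% to 74.5% and young males from 20.2% to 31.6%. Old mouse 2 then no longer lay below all young males. The share is a score over the members and was not tested.

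Without thinning, the mean share was 53.6 ± 23.5% in old and 37.1 ± 0.980% in young males and 67.9 ± 7.07% in old and 61.1 ± 1.49% in young females, the old cells being the deeper. Within the thinned cells with 5 or more members, the number of members per cell was 10.2 ± 0.634 in old and 10.2 ± 0.260 in young males and 12.1 ± 0.896 in old and 12.6 ± 0.284 in young females.

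**Figure D4:**
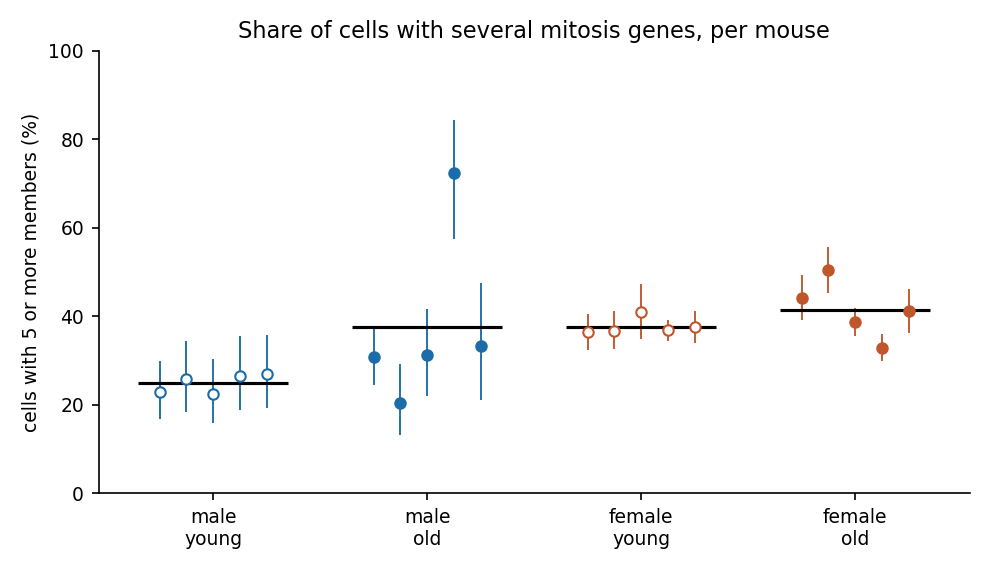
Percent of cells with 5 or more of the 40 members at 2000 UMIs (y axis) for each mouse of the 4 groups (x axis), with exact 95% binomial intervals; a line marks the mean of each group. Old male mouse 4 lies alone at 72.3%, and the young mice of each sex lie closer together than the old.

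Whether the members differed with age was tested on UMIs summed per mouse, over all genes of a pool, with edgeR's quasi-likelihood test and Benjamini-Hochberg adjustment at 0.05. In such sums, fewer dividing cells and less RNA of a gene per cell cannot be told apart. In females 0 of 40 members passed, where 3.42% of 10074 genes did. At an unadjusted p under 0.05 there was 1 member, Top2a, where 8.32% of all genes were higher at that level. DESeq2 called 0 members, where 3.5% of the 11384 genes given an adjusted p passed. With it, 1 member was higher at an unadjusted p under 0.05, where 6.85% of those genes were. The female log2 fold changes ran from -0.16 to 0.15, 18 above 0 (49.7% of all genes) and 22 below, with a median of -0.0021 beside -0.0012 for all genes. The median half-width of their 95% intervals was 0.16. With doublets included, 3 members passed, Aurka (0.19, edgeR adjusted p = 0.0345), Top2a (0.19, 0.0444) and Ccnb1 (0.22, 0.0488), all higher in old mice. In that setting 560 of 10701 genes passed.

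In males 0 of 36 members tested passed, where 0% of 5656 genes did, and Ttk, Bub1, Anln and Ect2 were too sparse to be tested. At an unadjusted p under 0.05 there were 4 members, Smc2, Top2a, Tpx2 and Smc4, all with higher values in old mice, where 5.62% of all genes were. DESeq2 called 0 members, where 0.852% of the 2700 genes given an adjusted p passed. With it, 4 of 40 members were higher at an unadjusted p under 0.05, where 6.07% of those 2700 genes were. Of all 13168 genes that DESeq2 fitted, 3.81% had such a p in either direction. Members without an adjusted p, such as the 2 cytokinesis genes, could not be called. Of the male log2 fold changes, 34 were above 0, where 51.4% of all genes were, and their median was 0.26 beside 0.01. Without old mouse 4 the median was 0.02 and 20 of 37 were above 0. Of these 37, 1 had an unadjusted p under 0.05, where 9.68% of all genes did in either direction. The median half-width of the male 95% intervals was 0.46. The classical monocyte markers summed to 15806 to 32909 CPM (UMIs scaled to the same library total) in old and 34721 to 37921 CPM in young males, without overlap, with old mouse 4 the lowest. Of single genes, 1.17% were lower in every old male. Lyz2 held 181838 of the markers' male UMIs, and Ly6c2, the next, 17613. By edgeR 7 of the 8 markers were below 0 and 0 were called (0% of all genes). DESeq2 called 1, lower in old mice (0.852% of the 2700 genes given an adjusted p). In females 4 markers were above 0 and 4 below, and edgeR called 2 (3.42% of all genes). The 7 neutrophil genes summed to 90.6 to 4329 CPM (median 1726) in old males, the highest being old mouse 4, and to 90.6 to 4014 CPM (median 136) in young males, the highest being young mouse 2. The 8 myeloid progenitor and azurophil granule genes summed to 2768 to 4459 CPM in old and 2506 to 3001 CPM in young males. Of them, edgeR tested 5 and called 0, with 3 higher at an unadjusted p under 0.05 (5.62% of all genes). Without old mouse 1 it called 3, where it called 39 of 5765 genes. DESeq2, over all 10 mice, called 3 of 8, where 0.852% of the 2700 genes given an adjusted p passed. In females this list ran the other way, with 2 of 7 tested above 0 and 5 below (edgeR). There edgeR called 1, lower in old mice, where 3.42% of all genes passed. The part of cells with such genes in the male result was not tested.

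The summed level of the members was 3405, 2848, 3360.3, 6297 and 3727 CPM in old and 2935, 2879, 3301, 3456 and 3435 CPM in young males. In females it was 5385, 6497, 5663, 5137 and 4981 CPM in old and 5545, 5442, 5600.5, 5409 and 5723 CPM in young mice. Old male 4 and old female 2 were the highest of their groups, and they also held the highest level among old mice for 36 and 38 of the 40 members. The share of all genes that were highest in these mice was not counted. Old male 4 was also the highest old male for the neutrophil, T or NK cell and erythroid lists. For the other cell type lists it was not. The old groups spread more widely (SD 1362 and 598 CPM) than the young (276 and 126 CPM).

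**Figure D5:**
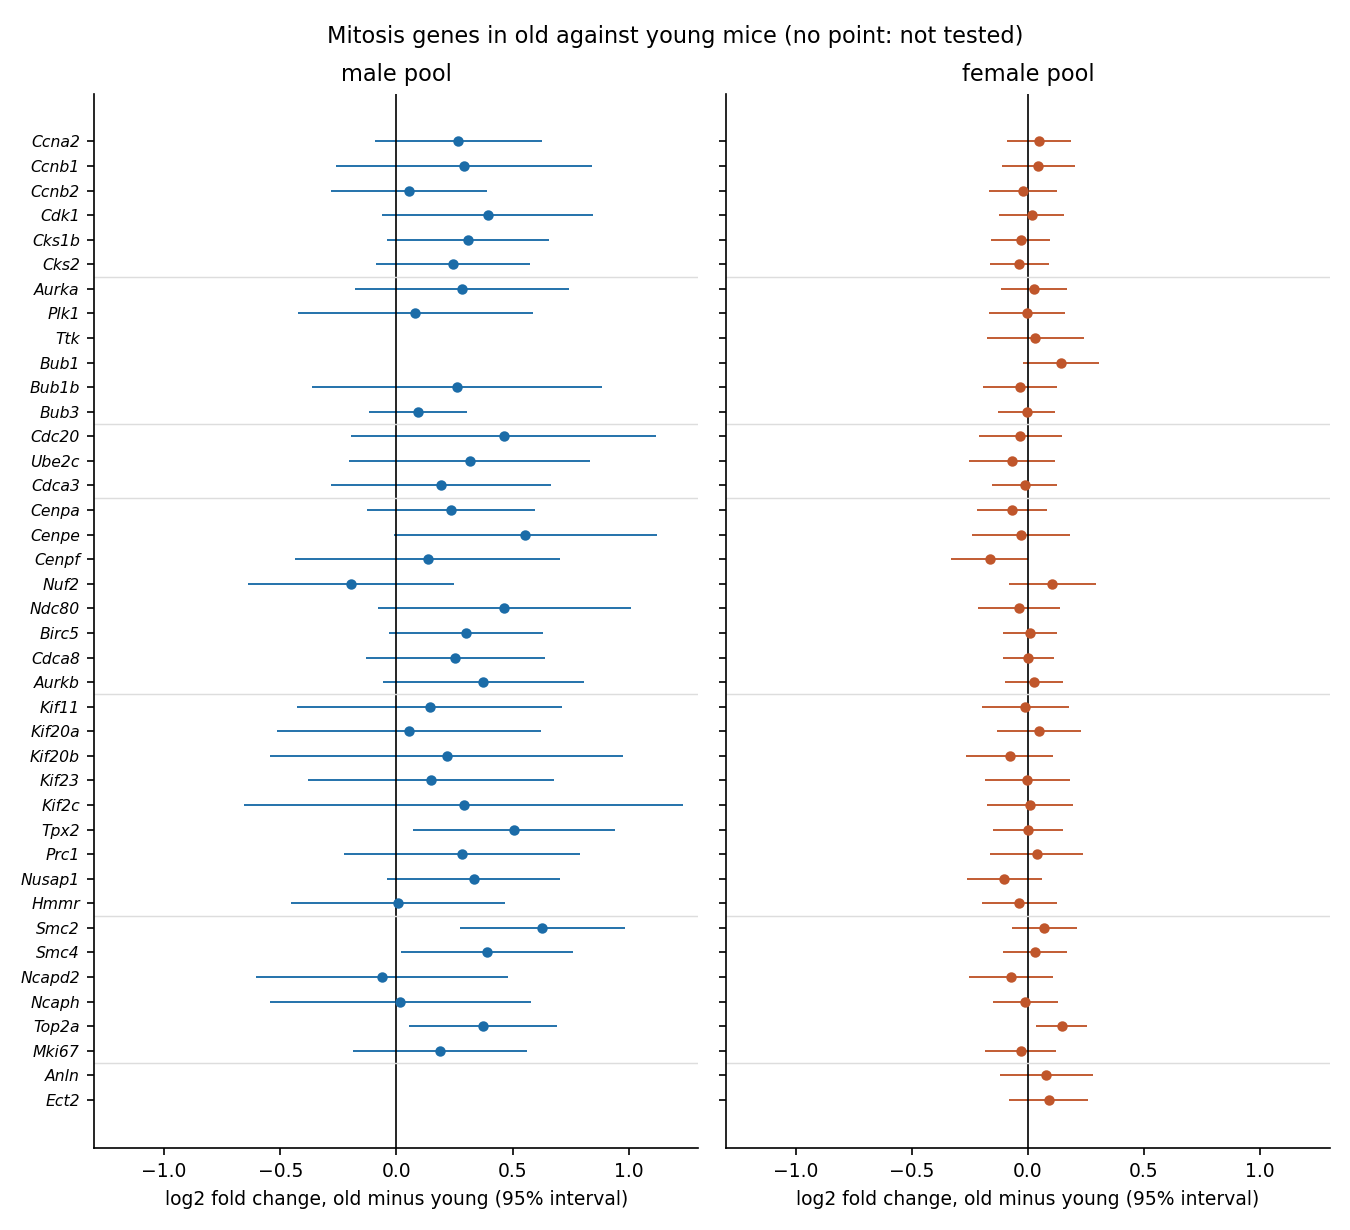
Log2 fold change of UMIs summed per mouse, old against young (x axis), with 95% intervals, for each member (y axis) in the male and female pools. Female values lie between -0.16 and 0.15, and 34 of 36 male values lie above 0 (20 of 37 without old male mouse 4).

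The 6 members with the highest mean level in the female pool are given mouse by mouse. Ube2c had 456, 593, 539, 444 and 406 CPM in old and 515, 480.1, 521, 465 and 577 CPM in young females (log2 fold change -0.07, SE 0.09, edgeR adjusted p = 0.772). The groups overlapped, with old mouse 2 the highest and old mouse 5 the lowest, and with doublets included the log2 fold change was 0.08. In males it had 147, 129, 157, 415 and 236 CPM in old and 143, 144, 172, 195 and 188 CPM in young mice (log2 fold change 0.32, SE 0.25, edgeR adjusted p = 0.675). They overlapped here too, old mouse 4 being the highest, and without that mouse the log2 fold change was -0.06.

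Top2a had 408, 428, 361, 353 and 366 CPM in old and 335, 352, 334, 353 and 355 CPM in young females (log2 fold change 0.15, SE 0.05, edgeR unadjusted p = 0.0135, adjusted p = 0.158). Old mouse 4 alone lay within the range of the young, and the others lay above it. In males it had 136, 164, 179.7, 280.3 and 202 CPM in old and 156, 129, 143, 155 and 138 CPM in young mice (log2 fold change 0.37, SE 0.15, edgeR unadjusted p = 0.0241, adjusted p = 0.367). Old mouse 1 lay within the range of the young and the others above it.

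Birc5 had 334, 395, 363, 310.5 and 331 CPM in old and 339.8, 348, 342, 342 and 348 CPM in young females (log2 fold change 0.01, SE 0.05, edgeR adjusted p = 0.972). The young females lay close together, and old mice lay on both sides of them. Without old mouse 2 the log2 fold change was -0.04, and without old mouse 3 it was -0.01. In males it had 330.4, 222, 293, 505 and 359.7 CPM in old and 254, 238, 303, 293 and 289.8 CPM in young mice (log2 fold change 0.30, SE 0.16, edgeR adjusted p = 0.5). Old mice 1, 4 and 5 lay above the young range, and old mouse 2 lay below it.

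Cenpa had 295, 346, 328, 272 and 268 CPM in old and 322, 282, 339, 306 and 334 CPM in young females (log2 fold change -0.07, SE 0.07, edgeR adjusted p = 0.711). Old and young overlapped, and with doublets included the log2 fold change was 0.04. In males it had 232, 195, 205, 392 and 189 CPM in old and 182, 174, 236, 186 and 250.3 CPM in young mice (log2 fold change 0.23, SE 0.17, edgeR adjusted p = 0.651). Old mouse 4 was the only old male above the young range.

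Mki67 had 269, 328, 281, 262 and 229 CPM in old and 272, 303, 269, 279.6 and 273 CPM in young females (log2 fold change -0.03, SE 0.07, edgeR adjusted p = 0.898). Old mouse 2 lay above the young range, and old mice 1, 4 and 5 lay below it, old mouse 1 barely (268.7 CPM beside 269.1 in young mouse 3). The log2 fold change was 0.03 without old mouse 5, 0.0021 without young mouse 2 and 0.03 with doublets included. In males it had 73.7, 78.2, 79.4, 145 and 80.6 CPM in old and 73.1, 75.7, 74.3, 98.1 and 72.4 CPM in young mice (log2 fold change 0.19, SE 0.18, edgeR adjusted p = 0.737). All but old mouse 4 and young mouse 4 lay close together, and without old mouse 4 the log2 fold change was -0.02.

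Smc4 had 257, 335, 269.6, 259.7 and 254 CPM in old and 267, 278, 267, 260.4 and 275 CPM in young females (log2 fold change 0.03, SE 0.06, edgeR adjusted p = 0.890). Old mouse 2 lay apart from all others, and without it the log2 fold change was -0.05. In males it had 176, 133, 139, 291 and 174 CPM in old and 138, 116, 118, 167 and 149.8 CPM in young mice (log2 fold change 0.39, SE 0.18, edgeR unadjusted p = 0.0406, adjusted p = 0.427). Old mice 1, 4 and 5 lay above the young range.

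Of members chosen after their values had been seen, Smc2, the condensin partner of Smc4, was the one member in males whose old and young mice did not overlap, where 0.955% of all genes were higher and 1.17% lower in every old mouse. In females 0 members were so, where 3.1% of all genes were higher and 2.64% lower. Smc2 had 82.6, 87.5, 82.2, 149.8 and 102 CPM in old and 57.8, 70.0, 71.4, 62.1 and 56.0 CPM in young males (log2 fold change 0.63, SE 0.17, edgeR unadjusted p = 0.00168, adjusted p = 0.193). It passed when no filter on low counts was used (0.61, edgeR adjusted p = 0.0302), where 95 of 13168 genes did. In females Smc2 had 166 ± 18.6 CPM in old and 157 ± 8.30 CPM in young mice (SD, n = 5; log2 fold change 0.07, SE 0.07, edgeR adjusted p = 0.663). Tpx2 had 44.0 ± 12.1 CPM in old and 30.5 ± 5.12 CPM in young males (log2 fold change 0.51, SE 0.21, edgeR unadjusted p = 0.0249, adjusted p = 0.371). Cenpf had the lowest fold change in females, with 115 ± 14.0 CPM in old and 129 ± 10.7 CPM in young mice (log2 fold change -0.16, SE 0.08, edgeR unadjusted p = 0.0514, adjusted p = 0.306).

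By role, the female median log2 fold change was -0.0017 for the cyclins and CDK partners, 0.01 for the kinases and checkpoint genes, -0.03 for the ubiquitin ligase partners, -0.01 for the centromere and passenger genes, -0.0015 for the kinesins and spindle genes and 0.01 for the chromosome genes, and 0.09 for the 2 cytokinesis genes. In males it was 0.28 for the cyclins and CDK partners, 0.18 for the kinases and checkpoint genes, 0.32 for the ubiquitin ligase partners, 0.28 for the centromere and passenger genes, 0.22 for the kinesins and spindle genes and 0.28 for the chromosome genes. The male value of the kinases and checkpoint genes rested on 4 of 6 members, and the cytokinesis genes were not tested in males. The median of all genes was -0.0012 in females and 0.01 in males. Over all male members tested it was 0.26, and 0.02 without old mouse 4. Neither sex had a called member in any role, where 3.42% of all genes passed in females and 0% in males (edgeR).

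The difference between the age effects of the sexes was tested as an interaction over all 20 mice. Of 40 members, 0 passed (edgeR), where 0.0225% of 8893 genes did, and 3 had a lower fold change in females at an unadjusted p under 0.05, where 2.71% did. DESeq2 called 0 members (0.018% of 16711 genes given an adjusted p), with 5 lower at an unadjusted p under 0.05 (1.91% of those genes). The female fold change was above the male for 3 members, where it was for 51% of all genes, and below it for 37, with a median difference of -0.26 (log2), or -0.04 without old male mouse 4.

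Of 44 other mitosis genes, 0 passed in females (edgeR), with 1 higher and 1 lower at an unadjusted p under 0.05 (of all genes, 8.32% were higher). DESeq2 called 0, with 2 and 1 (of the genes given an adjusted p, 6.85% were higher). The lowest p belonged to Aspm, a spindle pole protein (25.9 ± 4.25 CPM in old and 31.7 ± 5.29 CPM in young mice, log2 fold change -0.32, SE 0.11, edgeR adjusted p = 0.154). Ncapg2 of condensin II followed (22.4 ± 2.00 CPM in old and 19.1 ± 1.20 CPM in young mice, log2 fold change 0.22, SE 0.08, edgeR adjusted p = 0.167), and then Spc24 of the kinetochore (203 ± 11 CPM in old and 190.4 ± 5.17 CPM in young mice, log2 fold change 0.09, SE 0.04, edgeR adjusted p = 0.320). In males 28 were tested and 0 passed (edgeR), with 8 higher at an unadjusted p under 0.05 (of all genes, 5.62% were) and a median log2 fold change of 0.35 beside 0.01 for all genes. DESeq2 called 0, with 6 of 44 higher (of the 2700 genes given an adjusted p, 6.07%, and of all 13168 genes, 3.81% in either direction). The genes summed to 7091 CPM in old mouse 4, where the median of the old males was 4925 CPM. Without that mouse the median was 0.14, and 3 of 30 were higher at an unadjusted p under 0.05 (9.68% of all genes in either direction). Leaving out any 1 mouse gave 3 to 11, the last without old mouse 2 (12% of all genes).

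Of 17 regulators of mitotic transcription, 0 passed in females and 0 had an unadjusted p under 0.05, by edgeR and by DESeq2. Of all genes, 16.5% and 8.77% had such a p in either direction. The lowest p belonged to Mybl2 (19.5 ± 3.87 CPM in old and 16.2 ± 2.13 CPM in young mice, log2 fold change 0.27, SE 0.13, edgeR adjusted p = 0.302), followed by Lin37 of the DREAM complex (edgeR adjusted p = 0.606) and Nfyc of NF-Y (edgeR adjusted p = 0.677). In males 12 were tested and 0 passed (edgeR), with 2 higher and 1 lower at an unadjusted p under 0.05 (of all genes, 5.62% were higher). DESeq2 called 0, with 1 higher (of the 2700 genes given an adjusted p, 6.07%).

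Of 20 DNA replication genes, 0 passed in females (edgeR), with 2 higher at an unadjusted p under 0.05 (of all genes, 8.32% were). In females DESeq2 also called 0, with 2 higher (of the genes given an adjusted p, 6.85%). As many as 19 had log2 fold changes above 0 (of all genes, 49.7% did), with a median of 0.10 beside -0.0021 for the mitosis genes, a difference that was not tested. The lowest p belonged to Pcna, the sliding clamp (75.4 ± 6.01 CPM in old and 66.9 ± 2.31 CPM in young mice, log2 fold change 0.17, SE 0.06, edgeR adjusted p = 0.137), then to Rrm2 of ribonucleotide reductase (233 ± 25.3 CPM in old and 208 ± 15.5 CPM in young mice, log2 fold change 0.16, SE 0.07, edgeR adjusted p = 0.258) and Mcm3 of the replicative helicase (144 ± 14.7 CPM in old and 130.2 ± 10.3 CPM in young mice, log2 fold change 0.14, SE 0.07, edgeR adjusted p = 0.360). In males 17 of 19 tested were above 0 (of all genes, 51.4% were), with a median of 0.22, and 0 passed (edgeR), with 4 higher at an unadjusted p under 0.05 (of all genes, 5.62% were). DESeq2 called 0, with 2 higher (of the 2700 genes given an adjusted p, 6.07%). The genes summed to 2232 CPM in old mouse 4, where the median of the old males was 1744 CPM. Without that mouse 19 of 20 were above 0, with a median of 0.17. At an unadjusted p under 0.05, 2 were then higher (9.68% of all genes in either direction). Leaving out any 1 mouse gave 1 to 8 at that level. The lowest came without old mouse 3 (7.95% of all genes) or young mouse 1 (9.03%), and the highest without old mouse 2 (12%).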

How the data were processed

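The authors sorted the cells, marked each mouse with a hashtag antibody, pooled each sex and deposited, for every barcode, whole-number UMI counts of genes and antibodies made with Cell Ranger (version 4.0.0 per the methods and labels, 7.0.0 and 3.1.0 per the male and female file headers), STAR 2.5.1 and mm10. The counts were not normalized.

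Hashtags were called with HTODemux (Seurat 5.3.0). Of the female barcodes, singlets that had more than 200 genes and less than 5% of UMIs from mitochondrial genes entered (6641 of 10433 barcodes), and the authors' removal of a small female subset could not be repeated. All 1227 male barcodes were given to their leading hashtag, because the 401 called doublets held a median 95.1% of hashtag counts in 1 hashtag. No doublet caller on RNA was run. Raw counts were summed per mouse, and CPM was taken with TMM. Age was tested with edgeR 4.0.16 (filterByExpr, quasi-likelihood, two-sided), with DESeq2 1.42.0 as an alternative. The mouse was the replicate. Cells were thinned once to 2000 UMIs, with a second draw and depths of 1000 and 3000 UMIs as alternatives for the share of cells. The test was checked on simulated data. Members by mouse were named if called in either pool or, failing that, as the 6 highest in mean female CPM; of other lists, the 3 genes with the lowest female p were named. Members and lists were chosen with earlier results of these data known.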

Additional observations from a re-analysis of the deposited data

Results flagged for a closer look

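Values of a mouse were marked when the gap to its nearest neighbour, over the range of its 5-mouse group, exceeded 0.71 (Dixon's 95% limit), and 8 of 36 groups held such a value, where chance gives about 1 in 20. The groups share mice, so that these are not independent. Old male mouse 4 stood apart in the share of cells with 5 or more members (72.34%, next 33.33%), in the summed level of the members (6297 CPM, next 3727), in Cenpa (391.6 CPM, next 231.8), in Mki67 (145.5 CPM, next 80.63) and in Smc4 (291 CPM, next 175.8). It rested on 49 cells, the fewest of any mouse, which were also the deepest among males (median 8844 UMIs).

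Young male mouse 4 stood apart in Mki67 (98.1 CPM, next 75.68), old female mouse 2 in Smc4 (334.9 CPM, next 269.6), and young female mouse 3 in the share of cells with 5 or more members (40.93%, next 37.46%).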

How the results depend on the processing

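No paired analysis was possible because young and old mice of the same number are different animals that share only that number. Leaving out any 1 mouse left 0 members called in either sex and in the interaction. Of all genes, these fits called 194 of 10157 to 522 of 10132 in females. In males they called 39 of 5765 without old mouse 1, 24 of 5908 without old mouse 4 and 0 otherwise. The interaction called 1 to 4 genes, so that few or no genes of any kind were called in males and in the interaction. The count of called members became 3 in females with doublets included (560 of 10701 genes) and 1 in males with no filter on low counts (95 of 13168 genes). The median detection beside others was 24.63% in males and 34.97% in females when 10 other members were asked for. The Flt3 difference was -0.65 counts at 10 or more members and then did not pass. Flt3 passed as a share (-0.146 percentage points) and as a mean (-0.615 counts). CD11c also passed as a share (-0.129 percentage points) and as a mean (-0.525 counts), the mean having been chosen after seeing the data. CD11b, Ly6C, MHC-II, CD115 and depth kept their direction and passed under each of these. When single female mice were left out, an alternative added after seeing the data, the Flt3 difference ran from -0.88889 to -0.66667 counts and the MHC-II difference from -8.1111 to -2.6667 counts, and CD11b, Ly6C, MHC-II and CD115 passed each time.

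Some log2 fold changes turned sign. In females, Tpx2 was 0.0025 with DESeq2, 0.0026 with RLE, 0.1321 with thinned cells and 0.0032 with no filter, Birc5 was -0.0298 with thinned cells, and with doublets Tpx2 was 0.0791, Ube2c 0.0843, Cenpa 0.0380, Mki67 0.0273 and Cenpf 0.0357. In males, Mki67 was -0.1252 with thinned cells. Leaving out single mice gave -0.0627 to 0.0364 for Tpx2, -0.0402 to 0.0496 for Birc5, -0.0483 to 0.0599 for Smc4 and -0.1018 to 0.0289 for Mki67 in females, and -0.0643 to 0.4461 for Ube2c, -0.0188 to 0.2747 for Mki67 and -0.1057 to 0.3106 for Cenpf in males. The cause was not tested. The difference in share, old minus young, ran from 4.03 to 17.0 percentage points in males and from 1.53 to 5.90 in females when single mice were left out. Without old male mouse 2 the male groups no longer overlapped. In males and females the difference was 13.2 and 2.92 points at 3 or more members, and 5.04 and 0.758 at 10 or more. It was 8.65 and 2.47 points at 1000 UMIs, 13.5 and 4.40 at 3000 UMIs, and 15.3 and 3.75 in a second draw. Members at an unadjusted p under 0.05 numbered 10 of 31 with male singlets only, where 14% of all genes were. They numbered 12 of 40 with no filter (8.3% of all genes) and 12 of 39 without old male mouse 2 (12%). In females they numbered 14 of 40 with doublets (21.2%), and 4 lower and 1 higher without old mouse 2 (15.7%). These shares of all genes count both directions.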
